A study of Mus musculus with 6 samples.

Results

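The sarcomere genes examined here are 52 listed mouse genes that encode the contractile filaments of striated muscle and the structures that anchor them. A gene counted as measured when a row of the expression array carried its symbol and no other, which held for 34 of the 52. Of the other 18, 8 lay only on rows shared by several genes (Myh1, Myh2, Myh3, Myh4, Myh6, Myh7, Myh8 and Myl4), and 10 had no named row (Actc1, Lmod2, Lmod3, Myl3, Myom3, Neb, Tnnt1, Trim55, Ttn and Xirp2). No myosin heavy chain gene therefore had a row of its own. Pdlim5 had a second, dimmer row, and its brighter row was used.

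The samples were C2C12 myotubes, the multinucleate muscle cells that this mouse myoblast line forms in culture. All of them had been infected with adenovirus that also expressed eGFP. In the ATF4 group (3 arrays) the virus carried FLAG-tagged ATF4, a bZIP transcription factor of the amino acid and endoplasmic reticulum stress response. In the control group (3 arrays) it carried FLAG-tagged ATF4 lacking the bZIP domain, through which ATF4 dimerizes and contacts DNA. RNA was harvested 48 h after infection and 1 array was run per sample, with 16700 rows of values read as log2 levels. The samples are numbered 1 to 3 in each group. Whether each number was a culture of its own is not in the labels, so p-values rest on a spread that may be technical.

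The sarcomere is the repeating contractile unit of muscle. Thick filaments of myosin pull on thin filaments of actin, which troponin and tropomyosin open to myosin when calcium is released. Thin filaments are anchored and crosslinked at the Z-disc, thick filaments at the M-band, and titin spans from one to the other. Many of these proteins exist as fast, slow and developmental forms made by separate genes. Differentiating myotubes usually express a mixture of them before adult fibre types are set.

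Promoter sequences were read for the 3 measured genes with the largest falls in mean level (Pdlim3, Mybpc2 and Myom1) and for Myoz2, which had the largest gain. Each run holds the 250 bases before the annotated start of the gene, 5′ to 3′ on the gene's own strand, from RefSeq (build GRCm38.p6). Capitals mark the E-box CANNTG, which myogenic bHLH factors bind, the MCAT element CATTCC, which TEAD factors bind, and the palindromic CRE TGACGTCA, which bZIP factors of the CREB and ATF families bind. Both strands were searched.
Pdlim3, chr8:45885237-45885486, plus strand: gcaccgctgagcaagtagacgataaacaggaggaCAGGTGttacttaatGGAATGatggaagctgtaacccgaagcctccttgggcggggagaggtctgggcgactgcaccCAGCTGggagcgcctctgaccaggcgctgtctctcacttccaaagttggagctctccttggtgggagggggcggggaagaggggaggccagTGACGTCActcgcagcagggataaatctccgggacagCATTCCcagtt
Mybpc2, chr7:44524670-44524919, minus strand: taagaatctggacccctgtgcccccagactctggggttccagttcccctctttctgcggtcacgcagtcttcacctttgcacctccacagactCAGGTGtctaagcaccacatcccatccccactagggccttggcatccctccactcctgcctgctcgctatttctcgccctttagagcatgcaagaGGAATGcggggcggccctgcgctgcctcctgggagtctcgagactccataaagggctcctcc
Myom1, chr17:71019307-71019556, plus strand: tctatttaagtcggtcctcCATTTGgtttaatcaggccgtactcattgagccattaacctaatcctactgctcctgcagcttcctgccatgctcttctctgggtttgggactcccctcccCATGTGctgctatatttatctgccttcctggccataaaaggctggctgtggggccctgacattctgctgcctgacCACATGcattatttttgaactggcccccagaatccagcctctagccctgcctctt
Myoz2, chr3:123034988-123035237, minus strand: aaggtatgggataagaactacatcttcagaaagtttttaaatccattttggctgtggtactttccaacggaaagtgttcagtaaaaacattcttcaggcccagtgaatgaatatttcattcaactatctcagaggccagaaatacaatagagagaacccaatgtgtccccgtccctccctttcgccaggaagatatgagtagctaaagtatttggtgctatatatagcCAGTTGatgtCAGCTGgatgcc

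Pdlim3 held 2 E-boxes, 2 MCAT elements and 1 CRE, Mybpc2 held 1 E-box and 1 MCAT element, Myom1 held 3 E-boxes and Myoz2 held 2. Such windows were found for 41 of the 52 genes (49 promoters). An E-box stood in 35 of these 41 genes (41 of the 49 promoters), and in 66.2% of all 32851 promoters of the same length. MCAT elements stood in 15 of the 41 genes (15 of the 49 promoters) and in 12.6% of all promoters. A match to the MEF2 consensus stood in 7 genes (7 of the 49 promoters, against 2.92% of all promoters). The CArG box of serum response factor stood in 6 genes (7 of the 49 promoters, against 1.47% of all promoters). In the windows shown, Myom1 held a CArG box and Myoz2 a MEF2 match, neither of them marked in capitals. The composite element of ATF4 and C/EBP proteins, searched as TGATGNAA, stood in 2 genes, Pdlim3 and Tnnt1 (3.45% of all promoters). Of the 41 genes, Pdlim3 alone held the CRE (1.55% of all promoters), which was searched for after its sequence had been read. The E-box and CRE were spelled as palindromes, and no MCAT match overlapped an E-box in the windows shown, while the TGATGNAA match of Pdlim3 overlapped an MCAT element. These are matches of letters, with no binding measured.

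As a check of the treatment, the ATF4 target Asns, which makes asparagine, had 9.05, 8.33 and 7.99 on control arrays 1 to 3 and 10.68, 10.56 and 10.26 on ATF4 arrays, a change of 2.04 (limma adjusted p = 0.00646). Chac1, which degrades glutathione, was 3.61-fold higher (limma adjusted p = 0.00201). The Atf4 row itself had a change within its spread (-0.04, standard error 0.26, limma adjusted p = 1). Both viruses carry Atf4 sequence, so that row checks nothing.

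Both arrays of number 3 stood apart. Their interquartile ranges were 1.63 (control) and 1.80 (ATF4), against 2.19 to 2.28 on the other 4 arrays. Against the other arrays of its group, the median sarcomere gene differed by -0.56 on control array 3 and by -0.52 on ATF4 array 3, while the median of all rows differed by 0.15 and 0.11. Of the 34 sarcomere genes, 29 had their lowest control level on array 3 and 28 their lowest ATF4 level on array 3, against 34.7% and 31.9% of all rows. Arrays of one number deviated together from their group means (correlation across rows 0.58 to 0.78, against -0.67 to 0.22 for arrays of different numbers). Results are therefore given by group alone and with the block, a fit that takes the sample number as a term and so compares ATF4 and control within each number.

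Sarcomere genes were lower in myotubes with ATF4 than in controls. Of the 34 measured genes, 31 had a lower mean in ATF4 arrays, against 58.3% of all rows, and 27 were lower in each of the 3 numbered pairs, against 24.5% of all rows. The median change was -0.30 on the log2 scale (ATF4 minus control), against -0.03 over all rows. Within numbers 1, 2 and 3 the median was -0.35, -0.35 and -0.28. Without the number 3 pair, the median was -0.35 and 31 genes were lower in both pairs, against 36.4% of all rows. Leaving out control array 3 alone moved the median to -0.48, and leaving out ATF4 array 3 alone moved it to -0.20. In bulk samples, fewer myotubes and less RNA of these genes per myotube cannot be told apart.

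By group alone, 0 of the 34 genes passed limma's test at an adjusted p below 0.05, where 0.024% of all rows fell and 0.569% rose (0.593% in either direction). At an unadjusted p below 0.05, 6 were lower (2.16% of all rows) and 0 higher (3.1%). The groups did not overlap for 5 genes, all lower in ATF4 arrays (4.62% of all rows), and for 0 in the higher direction (4.5%). With the block, limma called 9 of the 34 lower and 0 higher, where 1.16% of all rows fell and 2.4% rose (3.56% in either direction). At an unadjusted p below 0.05 with the block, 24 were lower and 1 higher, against 9.43% and 8.29% of all rows. After cyclic loess normalization 10 fell with the block (1.1% of all rows). The shares over all rows take in many dimmer rows. Of the 34 genes, 32 lay above the 50th percentile of mean level and 18 above the 90th. Without rows under the 25th percentile, 12 of the 34 genes and 384 of 12525 rows fell with the block. Of the 9 called on the values as deposited, the groups overlapped for 8, so that these calls rest on the comparison within numbers. Without the number 3 pair, 3 of the 34 fell (0.461% of all rows), namely Pdlim3, Myom1 and Ankrd2.

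**Figure D1:**
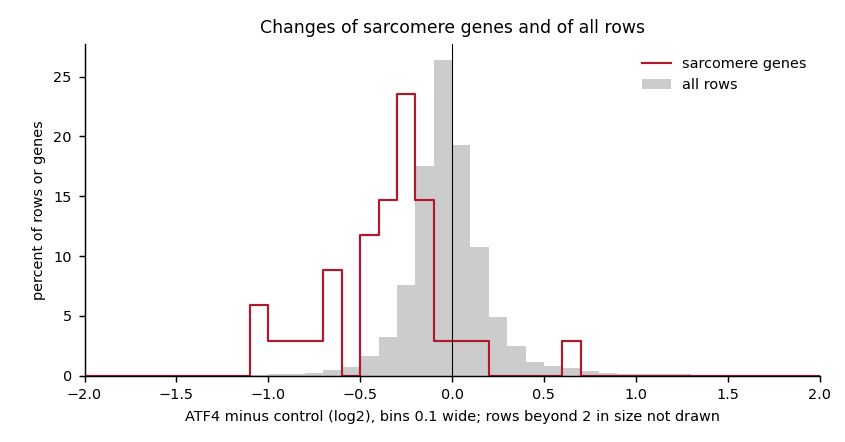
Distribution of changes (ATF4 minus control mean, log2, bins 0.1 wide) for all 16700 rows as grey bars and for the 34 measured sarcomere genes as a red line, each as a percent of its own total. Most of the sarcomere genes lie to the left of 0, with a median of -0.30 against -0.03 for all rows; rows beyond 2 in size are not drawn.

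**Figure D2:**
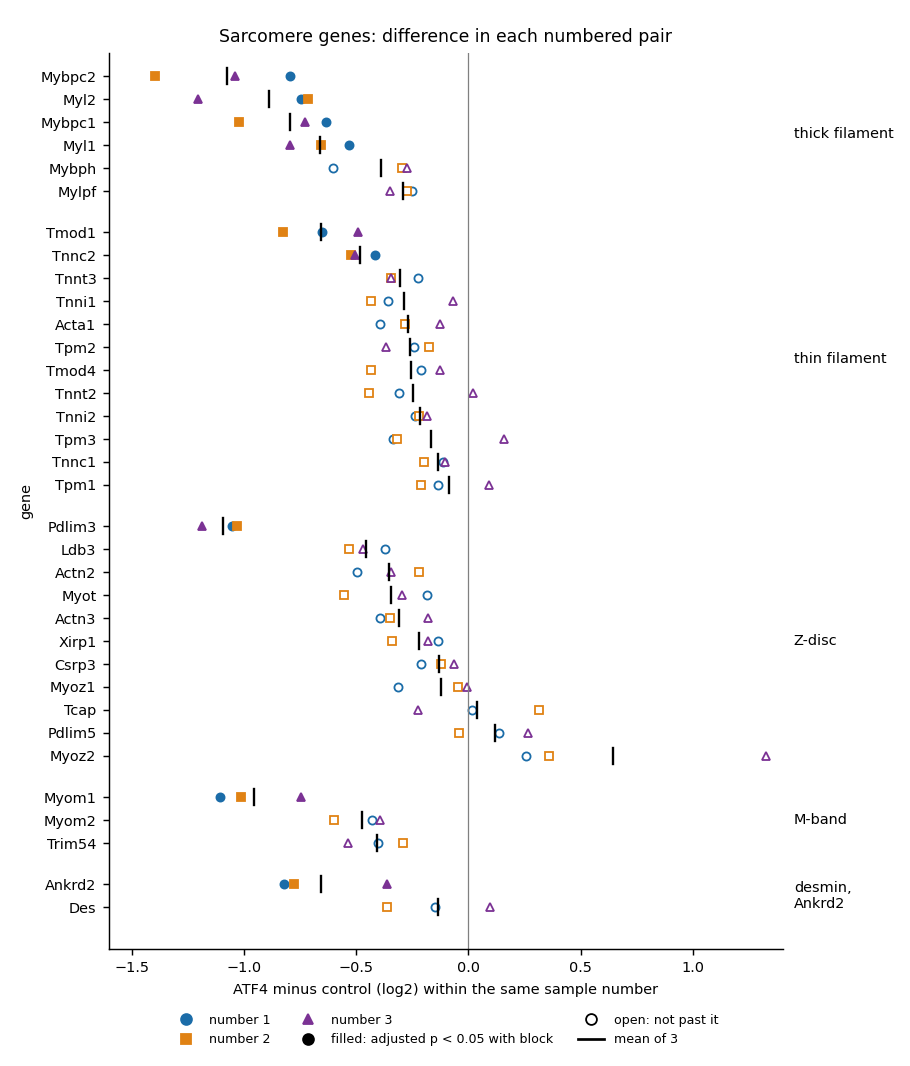
Change of each of the 34 measured sarcomere genes (ATF4 minus control, log2) within sample numbers 1 (circles), 2 (squares) and 3 (triangles), grouped by place in the sarcomere. The black bar is the mean of 3, and filled symbols mark the 9 genes past an adjusted p of 0.05 with the block; all 6 thick filament genes are left of 0 in every pair, and Myoz2 is right of 0 in every pair.

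Over all arrays, thick filament genes had the lowest group median among the 4 locations with their own group. All 6 measured genes (of 15 listed) were lower in each numbered pair, with a median of -0.73 and medians of -0.62, -0.69 and -0.76 within numbers 1 to 3. With the block 4 of them fell, and by group alone 0 passed. Leaving out ATF4 array 3 alone brought the median to -0.34, and leaving out control array 3 alone brought it to -1.005, while leaving out both gave -0.66. Leaving out control array 2 gave -0.46. The M-band median was the lower one without ATF4 array 3 (-0.35) and without control array 2 (-0.53), so this order depended on single arrays.

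Mybpc2 encodes the fast form of myosin-binding protein C, which lies along the thick filament and tunes the cross-bridges. It had 8.03, 8.21 and 7.18 on control arrays 1 to 3 and 7.24, 6.82 and 6.15 on ATF4 arrays. Every ATF4 array was lower than its numbered control, although ATF4 array 1 stood above control array 3. The change was -1.08, which is 47.4% of the control level (SE 0.32 and limma adjusted p 0.336 by group, 0.13 and 0.0161 with the block). Without the number 3 pair the limma adjusted p with the block was 0.0866.

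Mybpc1, the slow form of the same protein, had 7.47, 7.57 and 6.41 in control and 6.84, 6.55 and 5.68 in ATF4 arrays. Its groups overlapped too, and the drop from number 2 to number 3 was larger than the difference between groups. The change was -0.79 (SE 0.36 and limma adjusted p 0.948 by group, 0.10 and 0.0196 with the block, and 0.0842 with the block and without the number 3 pair).

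Myl2, the slow and cardiac form of the regulatory light chain that sits on the myosin neck, had the widest spread of any measured sarcomere gene. It had 10.78, 11.46 and 8.87 in control and 10.03, 10.74 and 7.66 in ATF4 arrays, so control arrays alone spanned 2.59 log2 units. The change of -0.89 (standard error 0.77, limma adjusted p = 1) was smaller than that span. Within numbers it was -0.75, -0.71 and -1.20, and the gene fell with the block (standard error 0.12, limma adjusted p = 0.0220). That call ended without the number 3 pair (0.0539), after quantile normalization (0.0542) and after scaling to equal interquartile ranges (0.102). Without ATF4 array 3 alone, the change by group was 0.02.

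Myl1, the fast essential light chain, had 7.80, 7.73 and 7.22 in control and 7.27, 7.07 and 6.42 in ATF4 arrays. ATF4 array 1 lay just above control array 3 and the other ATF4 arrays lay below all controls. The change was -0.66 (SE 0.25 and limma adjusted p 0.696 by group, 0.09 and 0.0220 with the block, and 0.0775 with the block and without the number 3 pair). The fast regulatory light chain gene Mylpf had -0.29 and the myosin-binding protein H gene Mybph had -0.39, and neither passed (limma adjusted p with the block 0.139 and 0.118).

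Thin filament genes had a median nearer to 0. All 12 measured genes (of 17 listed) had a lower mean, 9 were lower in each pair, 2 fell with the block and 0 passed by group alone. Their median change was -0.26, and -0.28, -0.33 and -0.13 within numbers 1 to 3. Leaving out ATF4 array 3 brought the median to -0.12 and leaving out control array 3 brought it to -0.45.

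Tmod1 encodes tropomodulin, which caps the pointed end of the thin filament. It had 7.48, 7.69 and 6.58 in control and 6.83, 6.86 and 6.09 in ATF4 arrays, and the groups overlapped. The change was -0.66 (SE 0.31 and limma adjusted p 1 by group, 0.10 and 0.0276 with the block, and 0.0621 with the block and without the number 3 pair). The skeletal muscle paralog Tmod4 had -0.26 and did not pass (limma adjusted p with the block 0.244).

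Tnnc2, the fast form of troponin C, the calcium sensor of the thin filament, had 11.74, 11.57 and 11.20 in control and 11.32, 11.05 and 10.69 in ATF4 arrays. The changes within numbers were close to one another at -0.42, -0.52 and -0.50. It fell with the block (mean -0.48, standard error 0.08, limma adjusted p = 0.0397; standard error 0.22 and limma adjusted p = 1 by group alone). This was the least steady of the 9 calls: of 10 other fits with the block it passed in 3, with a limma adjusted p up to 0.137.

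The other troponin genes did not pass in either fit. Tnnc1, the slow and cardiac troponin C, had 12.28, 12.25 and 11.87 in control and 12.17, 12.05 and 11.77 in ATF4 arrays, a change of -0.14 (limma adjusted p with the block 0.451). Tnni2, the fast form of the inhibitory subunit, had 11.19, 11.38 and 10.62 in control and 10.95, 11.16 and 10.44 in ATF4 arrays, a change of -0.21 (0.243 with the block). Tnni1, the slow form, had 9.14, 9.15 and 8.60 in control and 8.78, 8.72 and 8.53 in ATF4 arrays, a change of -0.29 (0.226 with the block). In all these troponin genes each ATF4 array was below the control of its number, by amounts smaller than the drop from arrays 1 and 2 to array 3 of the control group.

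Troponin T, which ties the complex to tropomyosin, was measured in its fast form and in its cardiac and embryonic form, while the slow form Tnnt1 had no named row. Fast Tnnt3 had 11.13, 11.20 and 10.61 in control and 10.91, 10.86 and 10.26 in ATF4 arrays, a change of -0.30 (limma adjusted p with the block 0.132). Tnnt2 had 11.05, 11.03 and 10.53 in control and 10.74, 10.58 and 10.55 in ATF4 arrays, a change of -0.25 (0.336). In Tnnt2 the number 3 arrays did not differ in the direction of the others (0.02).

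The actin and tropomyosin genes were read next. Acta1, skeletal actin, had -0.27. The tropomyosin genes Tpm1, Tpm2 and Tpm3 had -0.08, -0.26 and -0.17. None passed (limma adjusted p with the block 0.196 to 0.703), and Tpm1 and Tpm3 were higher in ATF4 within number 3. With 1 array left out, Tpm1 and Tpm3 took both signs (-0.19 to 0.038 and -0.53 to 0.038). Tpm2 was the 1 thin filament gene whose groups did not overlap, with ATF4 arrays lower.

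Z-disc genes were the most uneven group. Of 11 measured genes (12 listed), 8 were lower in each pair, 1 was higher in each pair, 1 fell with the block and 0 passed by group alone. The median was -0.22, and -0.21, -0.22 and -0.18 within numbers 1 to 3. The groups did not overlap for 4 of the 11 (Pdlim3, Ldb3, Myot and Xirp1), each lower in ATF4 arrays. Leaving out control array 3 moved the median to -0.42.

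Pdlim3 encodes ALP, a PDZ and LIM protein that binds alpha-actinin at the Z-disc. It had 8.94, 8.49 and 8.13 in control and 7.89, 7.45 and 6.94 in ATF4 arrays, so the lowest control array stood above the highest ATF4 array. The changes within numbers were -1.05, -1.03 and -1.19, and the mean of -1.09 is 46.9% of the control level. The standard error was 0.28 and the limma adjusted p 0.190 by group, and 0.08 and 0.00451 with the block. The change differed from that of Mybpc2 (-1.08) by less than either standard error. Pdlim3 passed in all 10 other fits with the block, with a limma adjusted p of 0.0319 without the number 3 pair.

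The related PDZ and LIM gene Ldb3, whose product ZASP or Cypher also binds alpha-actinin, had 6.96, 7.13 and 7.14 in control and 6.59, 6.59 and 6.67 in ATF4 arrays. The groups did not overlap, and array 3 was not low in either. The change of -0.46 missed the threshold in both fits (standard error 0.17, limma adjusted p = 0.612; 0.0501 with the block). Another PDZ and LIM gene, Pdlim5, had 8.78, 8.48 and 8.14 in control and 8.92, 8.44 and 8.40 in ATF4 arrays. Its change was 0.12 (limma adjusted p = 1; 0.578 with the block), and its dimmer row had 0.02.

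Myoz2 encodes calsarcin-1, a Z-disc protein of slow and cardiac muscle that binds the phosphatase calcineurin. It was the 1 measured gene higher in each numbered pair (17% of all rows), with 8.94, 9.50 and 7.30 in control and 9.20, 9.85 and 8.62 in ATF4 arrays. The change was 0.65 (SE 0.49 and limma adjusted p 1 by group, 0.22 and 0.202 with the block) and did not pass. Most of it came from number 3, with 0.26, 0.36 and 1.32 within numbers, and without that pair it was 0.31. Control array 3 was the lowest array by far, and without that array alone the change was 0.0060. Without control array 2 alone it was 1.11.

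The remaining Z-disc genes did not pass in either fit. The alpha-actinin genes Actn2 and Actn3, whose products crosslink actin, had -0.35 and -0.31. Myot (myotilin) had -0.34, the actin-binding Xirp1 -0.22, the LIM protein gene Csrp3 -0.13 and the fast calsarcin gene Myoz1 -0.12. With 1 array left out Csrp3 ran from -0.42 to 0.13. Tcap, which caps the end of titin, had 6.23, 5.85 and 6.26 in control and 6.25, 6.16 and 6.03 in ATF4 arrays, a change of 0.04 with a mixed direction over the pairs (limma adjusted p with the block 0.910).

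All 3 measured genes of the M-band list (of 5) were lower in each pair, with a median of -0.47. Myom1 encodes myomesin, which crosslinks thick filaments. It had 7.85, 8.14 and 6.64 in control and 6.75, 7.12 and 5.90 in ATF4 arrays, and the groups overlapped, with control array 3 low. The change was -0.95, or 51.6% of the control level (standard error 0.40, limma adjusted p = 0.832). With the block the standard error was 0.10 and the limma adjusted p 0.0119, and the gene passed in all 10 other fits with the block (0.0329 without the number 3 pair).

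Myom2, the M-protein gene, had 8.06, 7.94 and 7.09 in control and 7.63, 7.35 and 6.70 in ATF4 arrays, and stood at the edge of the threshold (change -0.47, limma adjusted p with the block 0.0503). Trim54, a ubiquitin ligase of the MuRF family that binds microtubules and the sarcomere, had -0.41 (0.0797 with the block). Leaving out control array 1 brought the M-band median to -0.30, and leaving out control array 3 brought it to -0.78.

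Outside these structures, Ankrd2 encodes an ankyrin repeat protein that binds titin in the I-band and responds to stretch. It had 8.64, 9.003 and 7.96 in control and 7.82, 8.23 and 7.59 in ATF4 arrays. The change was -0.65 (SE 0.28 and limma adjusted p 0.851 by group, 0.12 and 0.0468 with the block, and 0.0465 without the number 3 pair). The call ended without the number 1 pair (0.139), without the number 2 pair (0.0600) and after centring on array medians (0.0608). Desmin, the intermediate filament that links Z-discs, had -0.14 with number 3 in the other direction (Des, limma adjusted p with the block 0.588), and ran from -0.44 to 0.10 with 1 array left out.

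**Figure D3:**
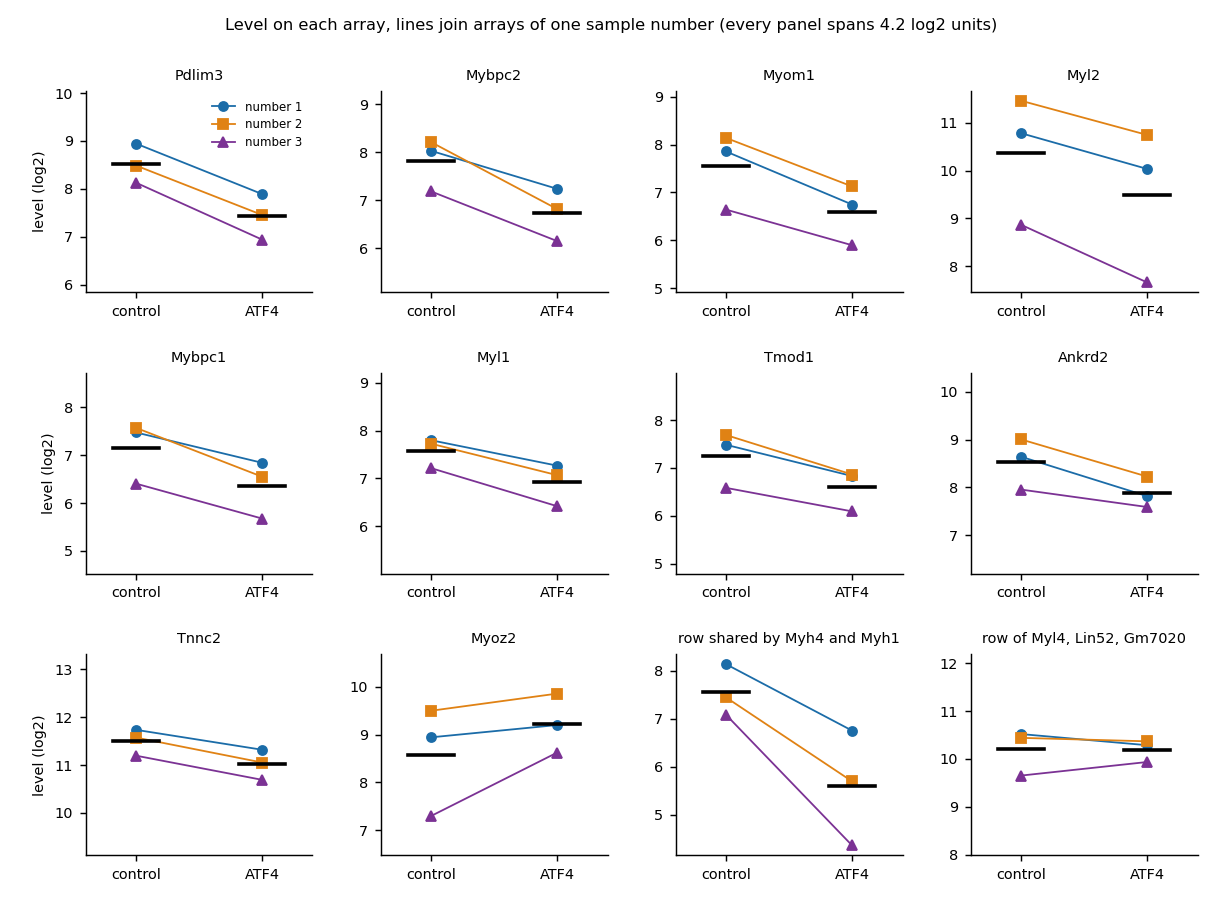
Level (log2) on each of the 6 arrays for the 9 genes that fell with the block, for Myoz2, and for the rows shared by Myh4 and Myh1 and by Myl4, Lin52 and Gm7020. Lines join control and ATF4 arrays of one number, black bars are group means, and every panel spans the same number of log2 units; number 3 (triangles) is lowest in both groups in all 12 panels, and all lines of the 9 genes run downward.

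Fast and slow forms were compared. All 8 measured fast genes (of 11 listed) were lower in each pair and 3 fell with the block (Mybpc2, Myl1 and Tnnc2), with a median of -0.31. Of 6 measured slow genes (9 listed), 4 were lower in each pair, 1 was higher in each pair (Myoz2), and 2 fell with the block (Mybpc1 and Myl2), with a median of -0.23. Within numbers 1 to 3 the fast median was -0.35, -0.35 and -0.35 and the slow median -0.35, -0.38 and -0.09, so the lists stood apart on number 3 and not on the other numbers. Without ATF4 array 3 the slow median was -0.0015 and the fast median -0.16, and without control array 3 they were -0.50 and -0.51. Tnnt2 was the 1 developmental gene of 5 with a row of its own, so no developmental median is given.

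In 7 proteins both of a pair of forms were measured, which compares forms within one array. The changes of the 2 forms differed in the same direction in all 3 numbers for 4 of the 7. With 3 numbers, an exact two-sided sign-flip test cannot go below 0.25, so these differences are given as values. The change of fast Tnnc2 minus that of slow Tnnc1 was -0.34 ± 0.05 (SD, n = 3), and that of fast Mybpc2 minus slow Mybpc1 was -0.28 ± 0.11. The order was the opposite in the regulatory light chains, where fast Mylpf minus slow Myl2 was 0.60 ± 0.22. Calsarcins gave -0.77 ± 0.49 for Myoz1 minus Myoz2. There Myoz1 was dim (percentile 32.3 of mean level) and changed by -0.12, against 0.65 for Myoz2, which did not pass. The direction varied over numbers for troponin I (0.07 ± 0.17), troponin T (fast Tnnt3 minus cardiac and embryonic Tnnt2, -0.06 ± 0.26) and alpha-actinin (0.04 ± 0.16). The sign of the difference was thus not shared across proteins.

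**Figure D4:**
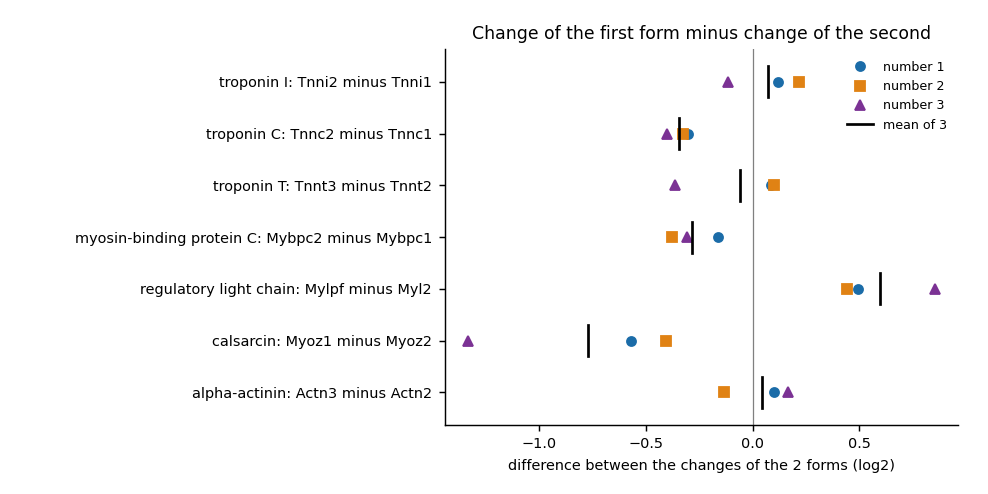
Difference between the changes of the first and the second form (log2) in 7 pairs of forms, within sample numbers 1 (circles), 2 (squares) and 3 (triangles), with the mean of 3 as a black bar. Troponin C, myosin-binding protein C and the calsarcins lie left of 0 in all numbers, the regulatory light chains right of 0, and troponin I, troponin T and alpha-actinin on both sides.

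Myosin heavy chain, the motor itself, could be read only from rows that several genes share. The row shared by the fast adult genes Myh4 and Myh1 had 8.14, 7.45 and 7.08 in control and 6.75, 5.69 and 4.36 in ATF4 arrays, with no overlap between groups. Its change of -1.96, or 25.8% of the control level, was larger than that of any measured single gene of the list. It did not pass by group alone (standard error 0.50, limma adjusted p = 0.192). It fell with the block (0.25 and 0.0178, and 0.0319 without the number 3 pair), a call that ended after scaling to equal interquartile ranges (0.0666). The changes within numbers were -1.39, -1.75 and -2.73. In number 3 the ATF4 level of 4.36 lay under the 25th percentile of that array (5.07). Without the number 3 pair the change was -1.57.

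The row shared by Myh8, Myh2, Myh3 and Myh1, which takes in the perinatal and embryonic genes, had 5.46, 5.58 and 5.58 in control and 5.29, 5.33 and 5.21 in ATF4 arrays. The groups did not overlap, and the change of -0.26 did not pass (limma adjusted p with the block 0.197). The row shared by the slow and cardiac genes Myh7 and Myh6 had -0.07 (0.740), with means of 5.28 in control and 5.21 in ATF4 arrays. Both of these rows were dim, at percentiles 37.7 and 33.3 of mean level over all rows. The row shared by Myl4, the embryonic and atrial light chain, with Lin52 and Gm7020 had -0.01 (0.984). None of these changes can be assigned to 1 gene.

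Other sarcomere genes outside the list were read as an accessory and assembly list, of which 21 of 32 had a row. Their median was -0.11, against -0.03 over all rows. Of the 21, 16 had a lower mean (58.3% of all rows) and 11 were lower in each pair (24.5%). None passed by group alone (0.593% of all rows in either direction), and 2 fell with the block (1.16% of all rows). Mypn, myopalladin, which links nebulin and alpha-actinin at the Z-disc, had 5.43, 4.77 and 5.44 in control and 4.37, 4.35 and 4.61 in ATF4 arrays (-0.77, limma adjusted p = 0.285; 0.0466 with the block). Smyd1, a methyltransferase needed for myosin assembly, had 6.74, 6.93 and 6.64 in control and 6.28, 6.27 and 6.18 in ATF4 arrays (-0.53, 0.439; 0.0394 with the block). The groups did not overlap for either, and neither passed without the number 3 pair (0.172 and 0.1001). By mean level, Mypn lay under the 25th percentile of rows. Tmod3, the tropomodulin of non-muscle cells too, was higher in each pair (0.28) and did not pass (0.198 with the block).

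Markers of cell state are given beside these results. Of 9 myotube markers 8 were measured and 7 had a lower mean (58.3% of all rows). Their median change was -0.29, close to the -0.30 of the 34 sarcomere genes. The list's mean level was 7.93 to 8.35 on control and 7.74 to 8.06 on ATF4 arrays. With the block 3 of the 8 fell (1.16% of all rows). They were Mef2c, a transcription factor of muscle genes (-0.73, limma adjusted p = 0.0289), the fusion protein gene Mymk (-0.53, 0.0392) and Cav3 (-0.47, 0.0415). Myog and Myod1 had -0.02 and 0.03. Of these 3 calls only that of Mef2c held without the number 3 pair (0.0495). All 8 lay above the 25th percentile of rows, so no measured marker of the labelled cell type lay at the bottom of the range.

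Of 6 myoblast and reserve cell markers, all measured, 3 had a lower mean (58.3% of all rows). Their median change was 0.00, with a mean level of 5.87 to 6.11 on control and 6.03 to 6.39 on ATF4 arrays. Cd34, also a marker of blood and vessel cells, was the 1 that passed. It went from 6.84, 7.02 and 6.76 to 8.47, 8.202 and 8.22 (limma adjusted p = 0.00495 by group alone, where 0.569% of all rows rose). Id3 had 0.18 and Id1 0.03, and neither passed. Pax7 had -0.03 and Myf5 -0.15. All 5 measured markers of cycling cells (6 listed) were lower in each pair, against 24.5% of all rows. Their median change was -0.40, with a mean level of 7.37 to 7.62 on control and 6.93 to 7.26 on ATF4 arrays. None of the 5 passed in either fit (limma adjusted p with the block 0.0722 for Cdk1, the lowest). Of smooth muscle markers 4 of 4 were measured (median -0.02, 7.73 to 7.95 and 7.58 to 7.95), and of cardiac markers 4 of 5 (median -0.07, 5.26 to 5.69 and 5.22 to 5.51, with Nppa and Nppb under the 25th percentile). The part of these shifts in the sarcomere result was not tested.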

How the data were processed

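Transcript levels were measured on Affymetrix mouse exon arrays in 6 samples, 3 per group. The authors deposited 16700 rows with a value for each array. The log2 scale of these deposited values is inferred from their range, so each fold rests on that reading. Per the submitters' processing notes, GCOS, RMA and genome build mm9 were used; the sources used here give no versions, settings or filters. The number of arrays limits the precision. No detection calls were used.

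Rows were named from the platform annotation (14988 with 1 symbol, 1018 with several, 694 with none). ATF4 and control were compared by lmFit and eBayes of limma 3.58.1 (R 4.3.3; no filter, two-sided, Benjamini-Hochberg over all 16700 rows, threshold 0.05), by group alone and with the sample number as a block (4 and 2 residual degrees of freedom). The pairing comes from sample numbers in the titles; same-numbered deviations correlated by 0.58 to 0.78, over the limit of 0.1. An exact permutation test of 3 against 3 cannot go below 0.1. Medians over gene groups are descriptions.

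Members, gene lists, pairs of forms and alternatives were chosen with earlier results of these data known. Array values are given for measured sarcomere genes past the threshold in either fit, the 3 largest changes in each direction and the troponins. They are also given for Ldb3 and Myom2, just outside the threshold, and for Asns, Cd34, Mypn, Smyd1 and some shared rows. Other genes, among them Chac1, Mef2c, Mymk and Cav3, which passed, are given by their change or fold. From the accessory list, genes past the threshold in either fit were named; Tmod3 and the 4 shared rows were chosen after their values were seen. The fits were also run on simulated data with effects of the sample number built in and errors independent between rows. That simulation cannot show how the calls fare where rows vary together. Promoters are those RefSeq gives for the genes, and no coordinates of mm9 are used. Rescalings, filters on dim rows, other moderation, array weights and left-out arrays were tried as alternatives.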

Additional observations from a re-analysis of the deposited data

How the results depend on the processing

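By group alone 99 rows and 0 sarcomere genes passed. With the sample number as a block, 594 rows and 9 sarcomere genes passed. By group, rows called were 57 after centring, 151 after cyclic loess, 561 with array weights (5 sarcomere genes), 157 without both number 3 arrays and 38 to 243 with 1 array left out (0 to 3 sarcomere genes, 3 without control array 3). With the block, rows and sarcomere genes called were 565 and 8 after quantile normalization, 612 and 7 after centring, 500 and 6 after scaling, 616 and 10 after cyclic loess, 974 and 12 without rows under the 25th percentile. With the block they were 354 and 6, 630 and 7, and 261 and 3 without pairs 1, 2 and 3. Chosen after seeing the data, robust moderation gave 642 and 11, an intensity trend 846 and 12, and thresholds of 0.01 and 0.1 gave 1 and 12 sarcomere genes. The sarcomere median was -0.26 after centring, -0.37 after scaling, -0.35 without number 3, and -0.48 to -0.20 with 1 array left out. With 1 array left out, medians ran from -1.005 to -0.34 (thick), -0.45 to -0.12 (thin), -0.42 to -0.15 (Z-disc), -0.78 to -0.30 (M-band), -0.51 to -0.16 (fast) and -0.50 to -0.0015 (slow). The Z-disc median was -0.19 after quantile normalization or cyclic loess and -0.18 after centring or scaling; the fast median was -0.34, -0.34, -0.26 and -0.44 in that order. With every row of a gene the Z-disc median was -0.18, and without number 3 the fast median was -0.33. Directions turned with 1 array left out for Myl2 (-1.64 to 0.020, above 0 without ATF4 array 3), Pdlim5 (-0.044 to 0.28, below 0 without control array 3 or ATF4 array 1) and Tcap (-0.096 to 0.11, below 0 without control array 2 or ATF4 array 1). With 1 array left out, Csrp3 (-0.42 to 0.13), Des (-0.44 to 0.10), Tpm1 (-0.19 to 0.038) and Tpm3 (-0.53 to 0.038) also took both signs. Directions turned too for Tcap with the block and without pair 2 (-0.10), and for Tnnc1 after quantile normalization in both fits (0.052). The causes were not tested.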
